A study of Mus musculus with 37 samples.

Results

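The integrated stress response and the cytosolic aminoacyl-tRNA synthetases were followed in mouse oocytes and 2-cell embryos as a list of 55 genes. The genes were found in 4 RNA-seq tables by gene symbol, with no filter on their values. The list itself was chosen with earlier results of these data known. The list holds 6 transcription factors, 5 genes of feedback and signalling, 3 secreted factors or their receptor, 8 genes of amino acid synthesis and one-carbon metabolism, 3 amino acid transporters, 7 genes of the endoplasmic reticulum (ER) chaperone and unfolded protein response, the 4 eIF2 kinases and 19 cytosolic synthetases. All 55 were among the 25053 genes of the Hira table, 50 among the 19033 genes of the Cabin1 oocyte table, 54 among the 24305 genes of the Cabin1 2-cell table and 49 among the 15855 genes of the Zscan4 table. Atf5, Trib3, Aldh1l2, Pck2 and Herpud1 had no row in the Cabin1 oocyte table, Atf5 had none in the Cabin1 2-cell table, and Fgf21, Atf5, Aldh1l2, Pck2, Herpud1 and Yars had none in the Zscan4 table.

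Cells attenuate protein synthesis under stress by phosphorylating the initiation factor eIF2. Its kinases are HRI (Eif2ak1), PKR (Eif2ak2), PERK (Eif2ak3) and GCN2 (Eif2ak4), which respond to haem or mitochondrial stress, double-stranded RNA, unfolded proteins in the ER and uncharged tRNA. Phosphorylated eIF2 lowers general initiation while the Atf4 messenger is translated, and ATF4 then drives Ddit3 (CHOP) and genes of amino acid synthesis, amino acid transport and tRNA charging. Fully grown oocytes are nearly silent in transcription and live on stored messengers, and the embryonic genome is activated around the 2-cell stage.

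The study asked what maternal loss of the Hira histone chaperone complex, which deposits histone H3.3, does to oocytes and early embryos. ZH oocytes carried floxed Hira and CabZ oocytes floxed Cabin1, and Zp3-Cre, which is active in growing oocytes, removed 1 floxed allele in the Het groups and both in the KO groups. The floxed lines and the wild-type mice were on the C57BL/6 background. The background of the Zp3-Cre line and the ages were not given in the sources used here. Germinal vesicle (GV) oocytes were compared as 4 ZH Het (Hira_Het) and 4 ZH KO (Hira_KO) libraries and as 4 CabZ Het (Cabin1_Het) and 4 CabZ KO (Cabin1_KO) libraries, and 2-cell embryos as 4 CabZ Het and 4 CabZ KO libraries. The last set held 4 libraries of 2-cell embryos labelled GFP control and 3 labelled Zscan4 overexpression (Zscan4 OE), made by injecting the RNA into wild-type oocytes that were then activated without sperm. How the CabZ 2-cell embryos were generated for sequencing was not given in the sources used here. The methods describe pooled oocytes per library and the sample records individual cells, so p-values measure the spread between libraries, which may be technical, and in pooled samples fewer cells with a transcript and less RNA per cell cannot be told apart.

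Levels are FPKM, fragments per kilobase of the whole gene span, and a gene counts as tested where its mean over both groups was at least 1 FPKM. A gene can reach this minimum through its higher group alone. They are scaled to each library's mapped fragments in the ZH and Zscan4 comparisons. In the CabZ comparisons, where FPKM was restored, they are scaled to each library's reads on genes. CPM, which scales a gene's reads to the library's reads on genes, was recovered from the same values, reaches more of the long, intron-rich genes and serves as a second scale. Rose and fell are used where the limma adjusted p (Benjamini-Hochberg over all tested genes) was under 0.05, and differentially expressed (DE) where the fold change also exceeded 2. Fold changes are on the log2(value + 1) scale, which understates changes of low genes. Libraries held 5819315 to 21869857 reads on genes, with the fewest in CabZ KO 2-cell embryos (5819315 to 6330242). Hira had 0 to 13 reads a library in ZH KO oocytes, against 2 to 14 in ZH Het, too few to check those labels. Cabin1 was at 1.48 to 5.70 CPM in CabZ KO against 10.5 to 18.8 in CabZ Het oocytes, and at 7.56 to 21.4 against 27.1 to 53.8 CPM in the 2-cell embryos. Zscan4d was at 495 to 604 CPM in the libraries labelled Zscan4 OE and at 507 to 1059 CPM in GFP, so the overexpression was not visible in them. The summed level of 12 oocyte markers was lower in ZH KO (18320 to 30750 CPM) than in ZH Het libraries (31230 to 33500 CPM). Of these 12, 5 were lower without overlap (Bmp15, Oosp1, H1foo, Mos and Kit), 0 were higher without overlap, and the others overlapped. The summed level of 7 transcripts of the 2-cell stage was higher in ZH KO (1089 to 1834 against 159 to 224 CPM). The part of either in the results on the list was not tested. Of 13 markers of granulosa and cumulus cells, 6 to 8 had over 3 reads in a GV oocyte or CabZ 2-cell library of each group, led by Esr2 (135 to 191 CPM in ZH oocytes), with Foxl2 and Has2 at or below 3.65 CPM where listed. In ZH oocytes their sums overlapped (171 to 227 CPM in KO and 219 to 229 in Het), but Fshr (6.41 to 17.9 against 0.483 to 3.88 CPM), Inha (3.31 to 7.45 against 0 to 1.39), Inhba (1.20 to 3.00 against 0 to 0.579) and Hsd3b1 (1.22 to 6.29 against 0 to 0.579) were higher in KO without overlap and Esr2 was lower (135 to 157 against 179 to 191), and their part was not tested. Of the blood markers, Ptprc alone was listed in the ZH table and none in the Cabin1 oocyte table, and the alpha-globin genes had reads in the CabZ 2-cell embryos of both groups (sums of the 5 blood markers of 70.8 to 246 CPM). Spans of 18 members overlap another listed gene, 15 of them a gene of the opposite strand. Whether strand was used in counting was not given, so reads of such pairs cannot be told apart.

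Promoter sequence was taken from RefSeq (GRCm38.p6), as the 250 bases before each annotated start, and 45 of the 55 members matched. Slc7a5, Aldh1l2, Cth, Cars, Hars, Lars, Nars, Rars, Vars and Wars had no entry there. The core of the C/EBP-ATF response element that ATF4 binds with C/EBP partners (TGATGNAA, searched on both strands) was found in 11 of 45 members (24.4%) and in 307 of 12953 protein-coding genes with such a promoter (2.37%). The 11 were Atf3, Nupr1, Chac1, Fgf21, Asns, Pck2, Slc7a11, Herpud1, Aars, Gars and Tars. The ER stress response element (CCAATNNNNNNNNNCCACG, both strands, no overlap with the core) was found in Hspa5 and Hsp90b1, 2 of 45 members (4.44%), and in 20 of the 12953 (0.154%). The RefSeq starts of Nupr1 and Atf3 lie 5391 and 34706 bp from the starts in the tables, so their promoters are those of another start. The sequences below are of 3 members with the core that differ in their behaviour and of both members with the ER element, written 5′ to 3′ along the gene with the match in capitals. Slc7a11 and Hsp90b1 each hold a pair of matches.
Fgf21 (chr7:45615491-45615740, minus strand): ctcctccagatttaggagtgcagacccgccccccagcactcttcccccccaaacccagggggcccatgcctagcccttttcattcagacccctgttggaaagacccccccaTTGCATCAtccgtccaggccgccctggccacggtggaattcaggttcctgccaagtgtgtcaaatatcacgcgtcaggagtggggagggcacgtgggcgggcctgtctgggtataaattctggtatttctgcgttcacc
Slc7a11 (chr3:50443614-50443863, minus strand): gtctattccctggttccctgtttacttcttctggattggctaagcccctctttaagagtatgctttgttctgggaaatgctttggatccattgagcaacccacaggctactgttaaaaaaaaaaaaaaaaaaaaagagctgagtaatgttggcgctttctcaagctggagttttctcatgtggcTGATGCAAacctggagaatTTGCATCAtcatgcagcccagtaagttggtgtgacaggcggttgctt
Tars (chr15:11399659-11399908, minus strand): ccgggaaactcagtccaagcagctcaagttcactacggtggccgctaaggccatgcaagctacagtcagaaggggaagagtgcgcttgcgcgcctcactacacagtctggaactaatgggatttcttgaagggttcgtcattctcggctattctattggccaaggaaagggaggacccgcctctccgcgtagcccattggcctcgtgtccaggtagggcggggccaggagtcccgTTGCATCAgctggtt
Hsp90b1 (chr10:86705445-86705694, minus strand): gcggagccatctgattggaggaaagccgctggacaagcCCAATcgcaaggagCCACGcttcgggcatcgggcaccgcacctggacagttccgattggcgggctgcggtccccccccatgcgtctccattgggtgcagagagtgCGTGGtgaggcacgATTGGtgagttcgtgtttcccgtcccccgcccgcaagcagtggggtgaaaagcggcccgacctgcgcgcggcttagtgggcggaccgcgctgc
Hspa5 (chr2:34771840-34772089, plus strand): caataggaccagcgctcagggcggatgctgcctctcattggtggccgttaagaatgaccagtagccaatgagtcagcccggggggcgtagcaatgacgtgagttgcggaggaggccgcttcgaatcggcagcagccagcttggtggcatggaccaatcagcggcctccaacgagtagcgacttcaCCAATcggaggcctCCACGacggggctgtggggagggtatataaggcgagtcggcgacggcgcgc
Counted back from the start, the match begins 139 bases before it in Fgf21, 15 in Tars, 66 and 47 in Slc7a11, 65 in Hspa5, and 212 and 107 in Hsp90b1. A match is a string of letters, and no binding was measured here.

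Loss of Hira in GV oocytes was accompanied by higher levels of the stress factors Fgf21, Ddit3 and Nupr1 and of the ER co-chaperone Dnajb9, and by lower levels of 7 of the 12 synthetases tested. Of 27 members tested on FPKM in ZH oocytes, 5 rose and 13 fell, where 25.6% of the 5792 genes tested rose and 26.3% fell. The DE members were Fgf21, Ddit3, Nupr1 and Dnajb9 among those that rose (4 of 27, background 10.5%) and Pdia4, Ppp1r15a, Sdf2l1 and Farsa among those that fell (4 of 27, background 7.2%). Fgf21 and Nupr1 were below 1 FPKM in every ZH Het library and were tested only through their KO values. The shares of all genes used the same minimum. The members' median log2 fold change was -0.44, against -0.04 over all genes tested. The share of calls that were higher was 27.8% and became 38.9% when libraries were scaled to the reads in the table, which put the median of all genes at 0.08. On CPM 46 members were tested, 9 rose and 15 fell, against a background of 32.6% and 20%, with a median of -0.32 beside 0.12 for all genes. The count of 4 DE members that fell was 1 without ZH Het replicate 1 and 2 without ZH Het replicate 2 or ZH KO replicate 1.

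**Figure D1:**
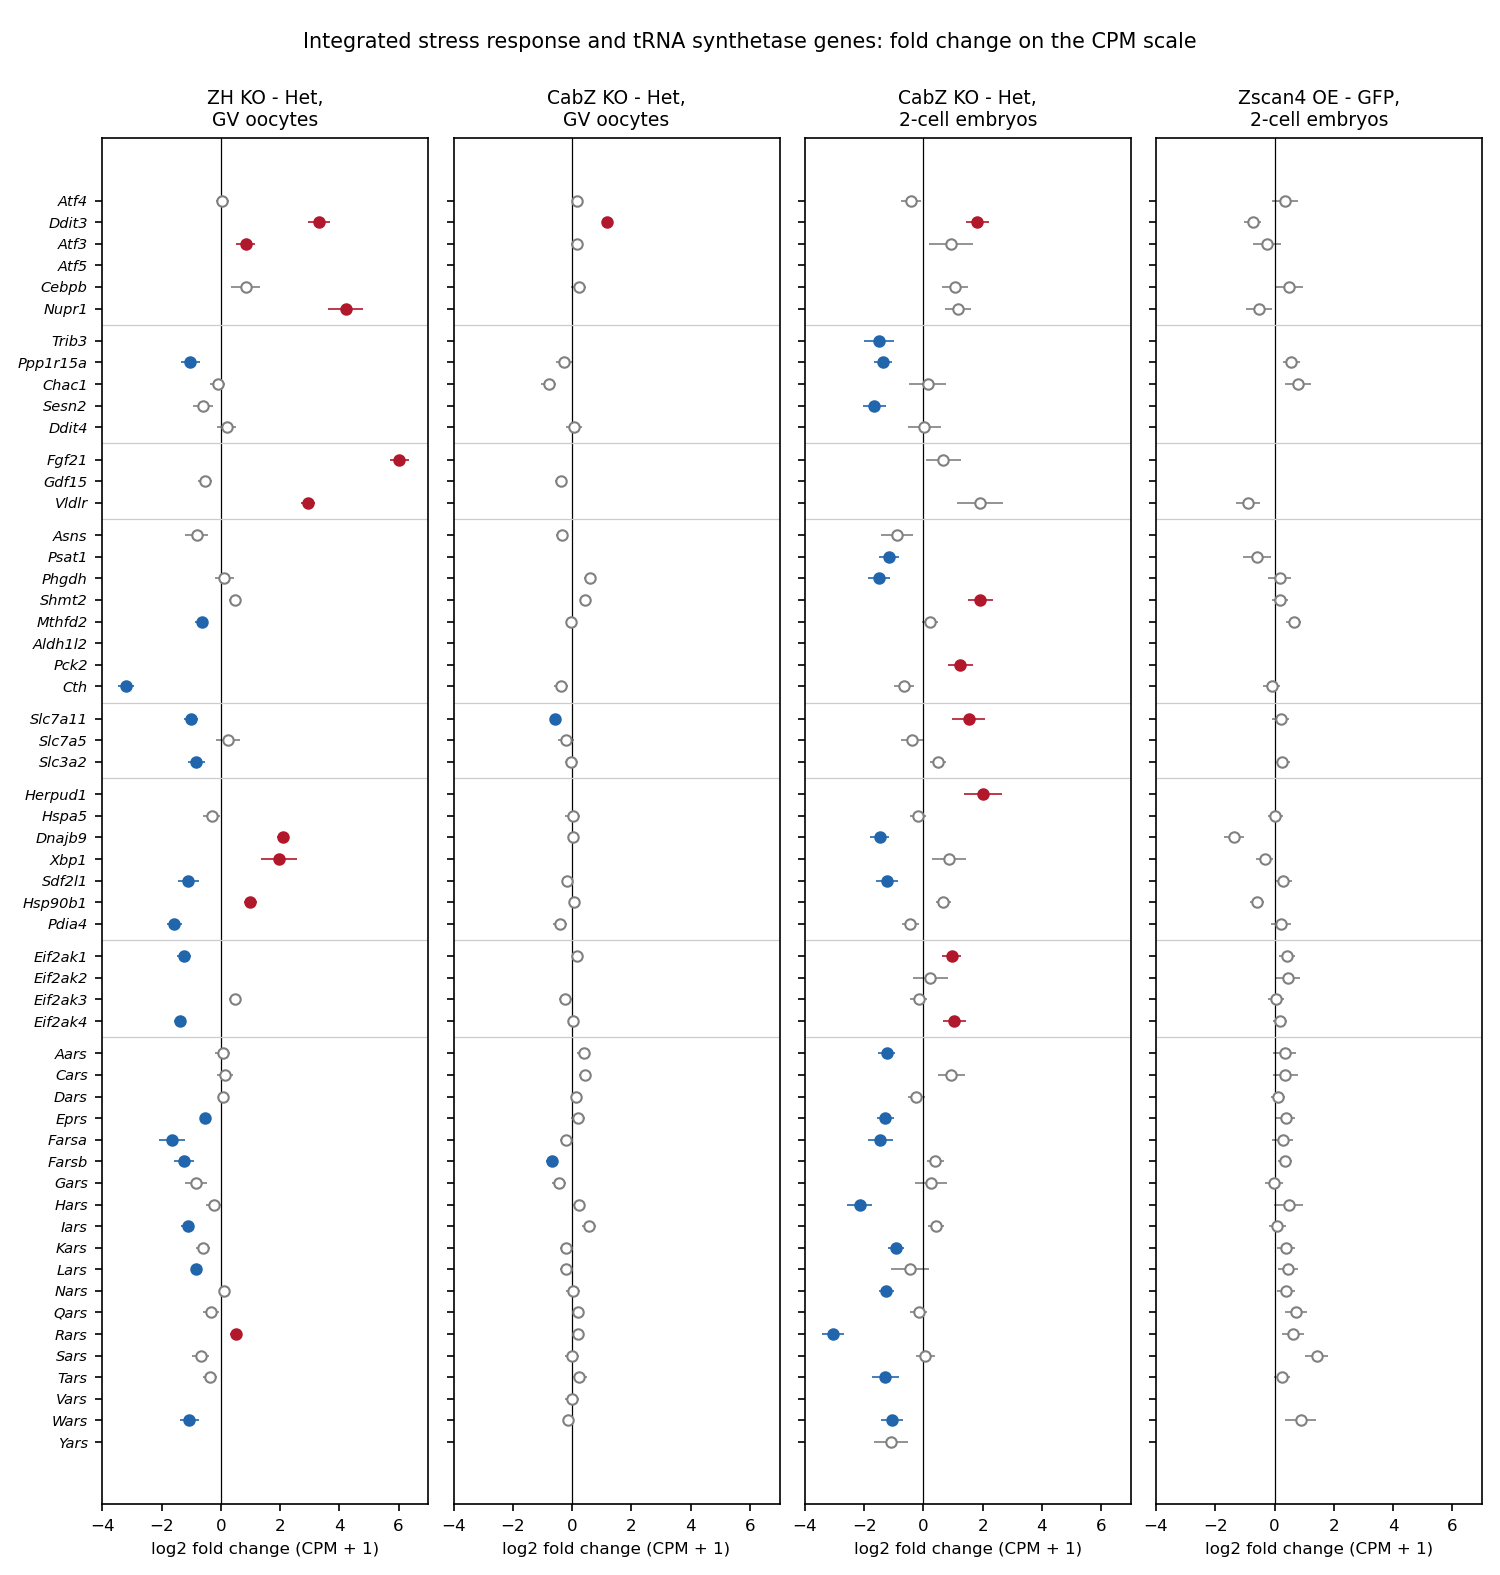
Log2 fold change of each member on the log2(CPM + 1) scale in the 4 comparisons, 1 panel each, with bars of 1 SE. Filled red and blue points rose or fell at an adjusted p under 0.05 (limma) and open grey points did not pass. Fgf21 (6.03) lies farthest right in the ZH panel, Rars (-3.05) farthest left in the CabZ 2-cell panel, and the Zscan4 panel has open points only.

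Among the transcription factors, Atf4 itself did not pass the test in ZH oocytes. Atf4 measured 23.7, 24.3, 20.2 and 18.9 FPKM in the 4 ZH Het libraries and 16.6, 29.7, 17.4 and 19.5 FPKM in the 4 ZH KO libraries, and the groups overlapped (log2 fold change -0.09, SE 0.19, adjusted p = 0.696). Ddit3, the pro-apoptotic factor CHOP (mm10 chromosome 10, 127290774 to 127296288, plus strand), was the member raised in most comparisons. Ddit3 measured 11.7, 11.6, 15.0 and 17.0 FPKM in the 4 ZH Het libraries and 181, 128, 53.4 and 189 FPKM in the 4 ZH KO libraries. Every KO library lay above every Het library, with KO replicate 3 the lowest of the KO libraries (log2 fold change 3.09, SE 0.36, adjusted p = 0.000139). Nupr1 measured 0.690, 0, 0.00792 and 0.0517 FPKM in the 4 ZH Het libraries and 3.38, 2.52, 5.56 and 1.76 FPKM in the 4 ZH KO libraries. Nupr1, a small stress-induced chromatin protein, was near 0 in 3 Het libraries and at 0.690 FPKM in Het replicate 1, and all KO libraries were above it (log2 fold change 1.82, SE 0.27, adjusted p = 0.000561). Atf3, a stress-induced relative of ATF4, was below 1 FPKM and rose on CPM, 2.10 to 4.44 against 3.87 to 12.6 CPM (log2 fold change 0.83, SE 0.31, adjusted p = 0.0416). Cebpb did not pass the test and spanned 14.3 to 38.1 FPKM in ZH Het and 12.1 to 72.3 FPKM in ZH KO libraries. Its span overlaps that of Tmem189 on the opposite strand. Atf5 had 0 to 3 reads in every library.

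Fgf21, a hormone induced in fasting and mitochondrial stress (mm10 chromosome 7, 45613886 to 45615490, minus strand), showed the largest difference of the list in ZH oocytes. Fgf21 measured 0.0448, 0, 0 and 0.0307 FPKM in the 4 ZH Het libraries and 47.7, 41.6, 15.2 and 20.01 FPKM in the 4 ZH KO libraries. In reads, the Het libraries held 1, 0, 0 and 1 and the KO libraries 1195, 1073, 323 and 438. Scaled to library totals, the summed KO reads were 1829 times the Het reads with a 95% exact counting interval of 505.9 to 15110, which covers counting error only (log2 fold change 4.83, SE 0.32, adjusted p = 5.82e-06). Its promoter is the one printed with the core 139 bases before the start. Vldlr, the VLDL receptor, was under the FPKM minimum, and its CPM was 0.0808 to 1.15 against 8.78 to 13.6 CPM without overlap (log2 fold change 2.95, SE 0.23, adjusted p = 4.80e-06). The stress cytokine Gdf15 did not pass the test on CPM and ran from 0.376 to 0.585 FPKM in ZH Het and 0.105 to 0.447 FPKM in ZH KO libraries.

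Genes of the ER moved in both directions. Dnajb9 measured 1.48, 2.32, 1.73 and 1.81 FPKM in the 4 ZH Het libraries and 6.47, 6.60, 9.25 and 7.58 FPKM in the 4 ZH KO libraries. Dnajb9 (ERdj4, a co-chaperone of BiP that holds IRE1 inactive, mm10 chromosome 12, 44205559 to 44210326, minus strand) was higher in every KO than in every Het library (log2 fold change 1.58, SE 0.15, adjusted p = 3.86e-05). Hsp90b1, the ER form of HSP90 (GRP94), spanned 6.69 to 9.56 FPKM in ZH Het and 10.4 to 17.0 FPKM in ZH KO libraries and also rose (log2 fold change 0.77, SE 0.17, adjusted p = 0.00533). It overlaps 1810014B01Rik on the opposite strand, which stayed at or below 0.238 FPKM. Pdia4 measured 3.96, 4.37, 3.43 and 3.08 FPKM in the 4 ZH Het libraries and 0.712, 1.69, 1.11 and 1.05 FPKM in the 4 ZH KO libraries. Pdia4, a protein disulphide isomerase, fell with no overlap of the groups (log2 fold change -1.15, SE 0.16, adjusted p = 0.000385). Sdf2l1 measured 6.31, 6.14, 5.21 and 5.12 FPKM in the 4 ZH Het libraries and 0.942, 4.74, 2.95 and 1.70 FPKM in the 4 ZH KO libraries. Sdf2l1, a partner of ER chaperones, fell as well, with KO replicate 2 the highest of the KO libraries (log2 fold change -1.01, SE 0.29, adjusted p = 0.0152). Hspa5 (BiP), the central ER chaperone and the other gene with the ER element, did not pass the test (32.7 to 41.8 FPKM in ZH Het and 18.5 to 48.1 FPKM in ZH KO libraries, log2 fold change -0.45, adjusted p = 0.172).

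Xbp1, whose spliced form drives the unfolded protein response, was under the FPKM minimum and rose on CPM, 0.313 to 1.19 against 1.65 to 29.4 CPM (log2 fold change 1.95, SE 0.61, adjusted p = 0.0199). Herpud1, an ER membrane protein of protein degradation, had 0 to 4 reads in Het and 0 to 41 in KO libraries. The median of the ER group was -0.45 on FPKM over 5 tested genes and turned to 0.34 on CPM over 6, and to 0.31 on FPKM scaled to the reads of the table.

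**Figure D2:**
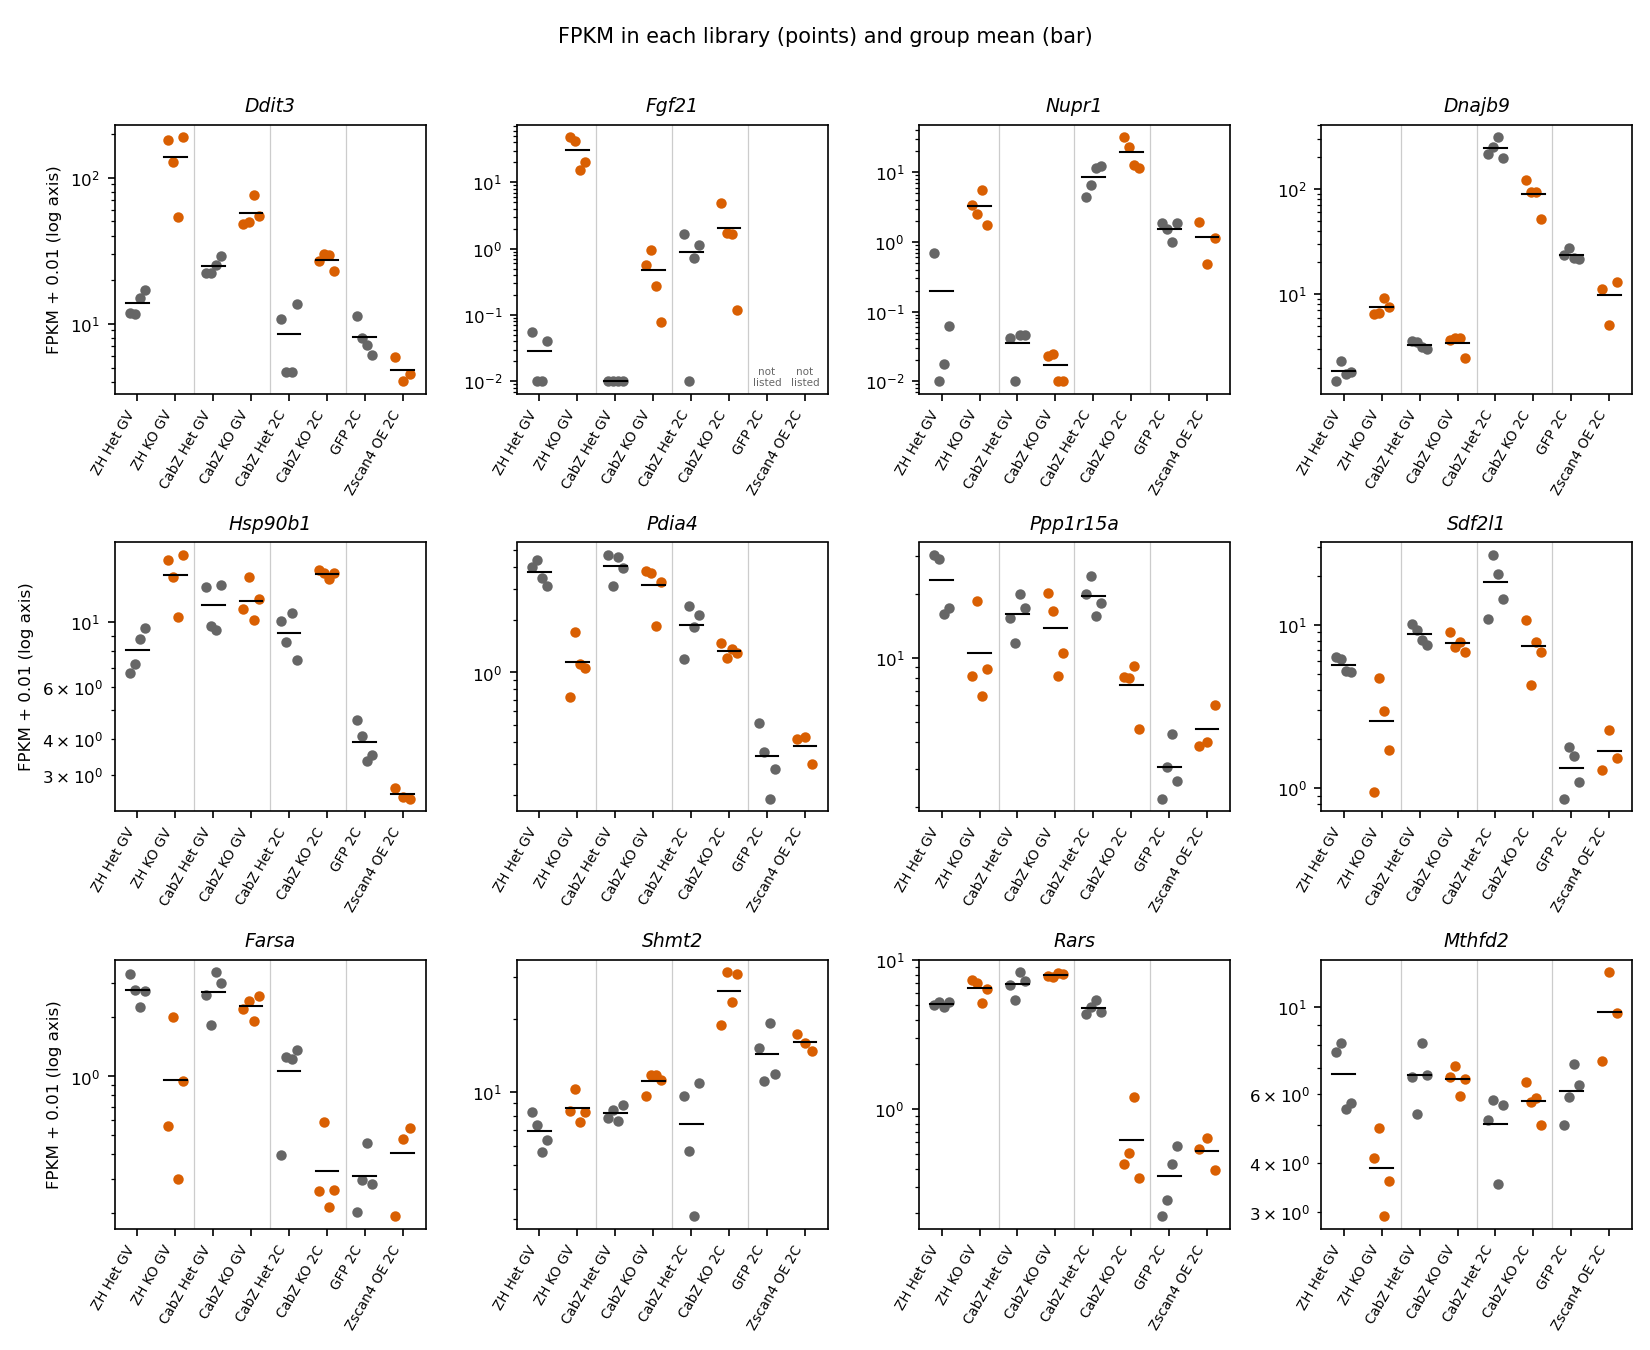
FPKM + 0.01 in every library (log axis) for 12 members, with control groups in grey, KO and Zscan4 OE groups in orange, and a bar at each group mean. Ddit3 in the ZH panel runs from 11.6 to 17.0 FPKM in Het and from 53.4 to 189 FPKM in KO libraries, and Dnajb9 is higher in ZH KO but lower in CabZ KO 2-cell embryos than in their controls.

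The feedback gene Ppp1r15a encodes GADD34, the subunit that returns eIF2 to its unphosphorylated state. Ppp1r15a measured 30.4, 29.2, 16.0 and 17.0 FPKM in the 4 ZH Het libraries and 8.20, 18.4, 6.56 and 8.81 FPKM in the 4 ZH KO libraries. It fell although the groups overlapped (log2 fold change -1.11, SE 0.31, adjusted p = 0.0147), and its span overlaps that of Tulp2 on the opposite strand, which was at 0.00589 to 0.0280 FPKM in Het and 0.0562 to 0.102 FPKM in KO libraries. The glutathione-degrading enzyme Chac1, the leucine sensor Sesn2 and the mTOR inhibitor Ddit4 were under the minimum, at 0.191 to 0.671 against 0.183 to 0.430 FPKM, 0.0186 to 0.0970 against 0.00347 to 0.0708 FPKM and 0.144 to 0.557 against 0.209 to 1.09 FPKM, Het first, and passed on neither scale. The pseudokinase Trib3 had 0 to 5 reads in Het and 1 to 65 in KO libraries. Of the synthesis genes, Mthfd2, a mitochondrial folate enzyme, fell, with 6.72 ± 1.34 FPKM in ZH Het and 3.88 ± 0.840 FPKM in ZH KO (mean ± SD, n = 4 each, log2 fold change -0.66, SE 0.17, adjusted p = 0.00974). Cth, which makes cysteine from cystathionine, was under the FPKM minimum and showed the steepest fall on CPM, 20.9 to 39.0 against 1.16 to 3.22 CPM (log2 fold change -3.20, SE 0.28, adjusted p = 9.62e-06). Shmt2 measured 8.30, 7.30, 5.66 and 6.32 FPKM in the 4 ZH Het libraries and 8.36, 10.3, 7.50 and 8.31 FPKM in the 4 ZH KO libraries. Shmt2, the mitochondrial serine hydroxymethyltransferase, did not pass the test here (log2 fold change 0.29, SE 0.15, adjusted p = 0.122). Pck2, mitochondrial PEP carboxykinase, had 3 reads in all Het and 34 in all KO libraries, a ratio of 13.7-fold (95% exact counting interval 4.31 to 69.7).

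Asns and Phgdh, which make asparagine and the first intermediate of serine, were at 0.0898 to 0.177 against 0.00354 to 0.150 FPKM and 0.612 to 0.879 against 0.444 to 1.45 FPKM and passed on neither scale. Both chains of cystine transport were lower. Slc3a2, the shared heavy chain, fell (9.03 to 13.2 FPKM in ZH Het and 3.17 to 8.30 FPKM in ZH KO libraries, log2 fold change -0.87, SE 0.25, adjusted p = 0.0154). Slc7a11, the cystine light chain, whose promoter holds a pair of cores, had 1482 to 1983 reads in Het and 521 to 937 in KO libraries and fell on CPM (log2 fold change -1.0, SE 0.22, adjusted p = 0.00344). Slc7a5, the light chain for leucine, was at 0.143 to 0.220 FPKM in ZH Het and 0.0870 to 0.516 FPKM in ZH KO libraries and did not pass the test on CPM.

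Of the eIF2 kinases, only Eif2ak1 reached the FPKM minimum in ZH oocytes. Eif2ak1 measured 1.86, 1.80, 1.54 and 1.28 FPKM in the 4 ZH Het libraries and 0.514, 0.930, 0.469 and 0.612 FPKM in the 4 ZH KO libraries. It fell without overlap of the groups (log2 fold change -0.69, SE 0.13, adjusted p = 0.00245). A stretch of 1548 bp of its span overlaps Aimp2 on the opposite strand, and Aimp2 went the other way, 8.26 to 9.43 FPKM in Het against 15.6 to 22.7 FPKM in KO libraries. Eif2ak4 had 261 to 370 reads in Het and 88 to 117 in KO libraries and fell on CPM (log2 fold change -1.37, SE 0.20, adjusted p = 0.000265). Eif2ak2 had 40 reads over the Het and 4 over the KO libraries, 8.28-fold more in Het (95% exact counting interval 2.99 to 31.9), and its exact two-sided permutation p of 0.0286 is the smallest that 4 against 4 libraries allow. Eif2ak3 was at 3.39 to 5.5 against 5.22 to 7.91 CPM, Het first, and did not pass the test (adjusted p = 0.0714).

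Of 12 cytosolic synthetases tested on FPKM in ZH oocytes, 0 rose and 7 fell, beside 25.6% and 26.3% of all genes, and 11 estimates were below 0, with a median of -0.45 against -0.04 for all genes. The median stayed below 0 in every alternative tried. Farsa measured 3.31, 2.76, 2.26 and 2.71 FPKM in the 4 ZH Het libraries and 0.549, 2.01, 0.289 and 0.938 FPKM in the 4 ZH KO libraries. Farsa, the catalytic subunit of the phenylalanine enzyme, fell with every KO library below every Het library (log2 fold change -1.02, SE 0.24, adjusted p = 0.00616), and its partner subunit Farsb also fell (2.09 to 3.42 FPKM in ZH Het and 0.584 to 1.99 FPKM in ZH KO libraries, log2 fold change -0.84, SE 0.21, adjusted p = 0.00803). Iars, for isoleucine, fell by 0.89 on the log2 scale (adjusted p = 0.00104), Sars, for serine, by 0.60 (adjusted p = 0.0293), Wars, for tryptophan, by 0.59 (adjusted p = 0.0166), Kars, for lysine, by 0.46 (adjusted p = 0.033), and Eprs, for glutamate and proline, by 0.38 (adjusted p = 0.0137). The calls of Sars and Kars were lost on CPM (adjusted p = 0.0629 and 0.0565). Without ZH Het replicate 1 or 2 or ZH KO replicate 1 or 3, both were also lost (adjusted p from 0.0533 to 0.0832 for Sars and from 0.0518 to 0.0943 for Kars), as was Sars without ZH Het replicate 4, Kars without ZH KO replicate 4, and Wars without ZH Het replicate 1 or ZH KO replicate 4. On CPM 17 were tested, 6 fell and 1 rose, beside 20% and 32.6% of all genes on that scale. Rars, for arginine, was the one that rose, 169 to 186 against 199 to 292 CPM (log2 fold change 0.50, SE 0.18, adjusted p = 0.036), and Lars, for leucine, was lower on that scale only (log2 fold change -0.82, SE 0.20, adjusted p = 0.00511). Rars measured 4.98, 5.24, 4.83 and 5.27 FPKM in the 4 ZH Het libraries and 7.41, 6.99, 5.19 and 6.45 FPKM in the 4 ZH KO libraries. The FPKM of Rars did not pass the test (log2 fold change 0.30, SE 0.13, adjusted p = 0.074). Below the FPKM minimum lay Aars (0.486 to 0.796 against 0.438 to 0.916 FPKM), Cars (0.494 to 0.728 against 0.371 to 0.962 FPKM), Hars (0.330 to 0.513 against 0.219 to 0.560 FPKM) and Gars (group means 1.12 and 0.612 FPKM), none of which passed on CPM. Vars and Yars had at most 23 reads in any library.

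**Figure D3:**
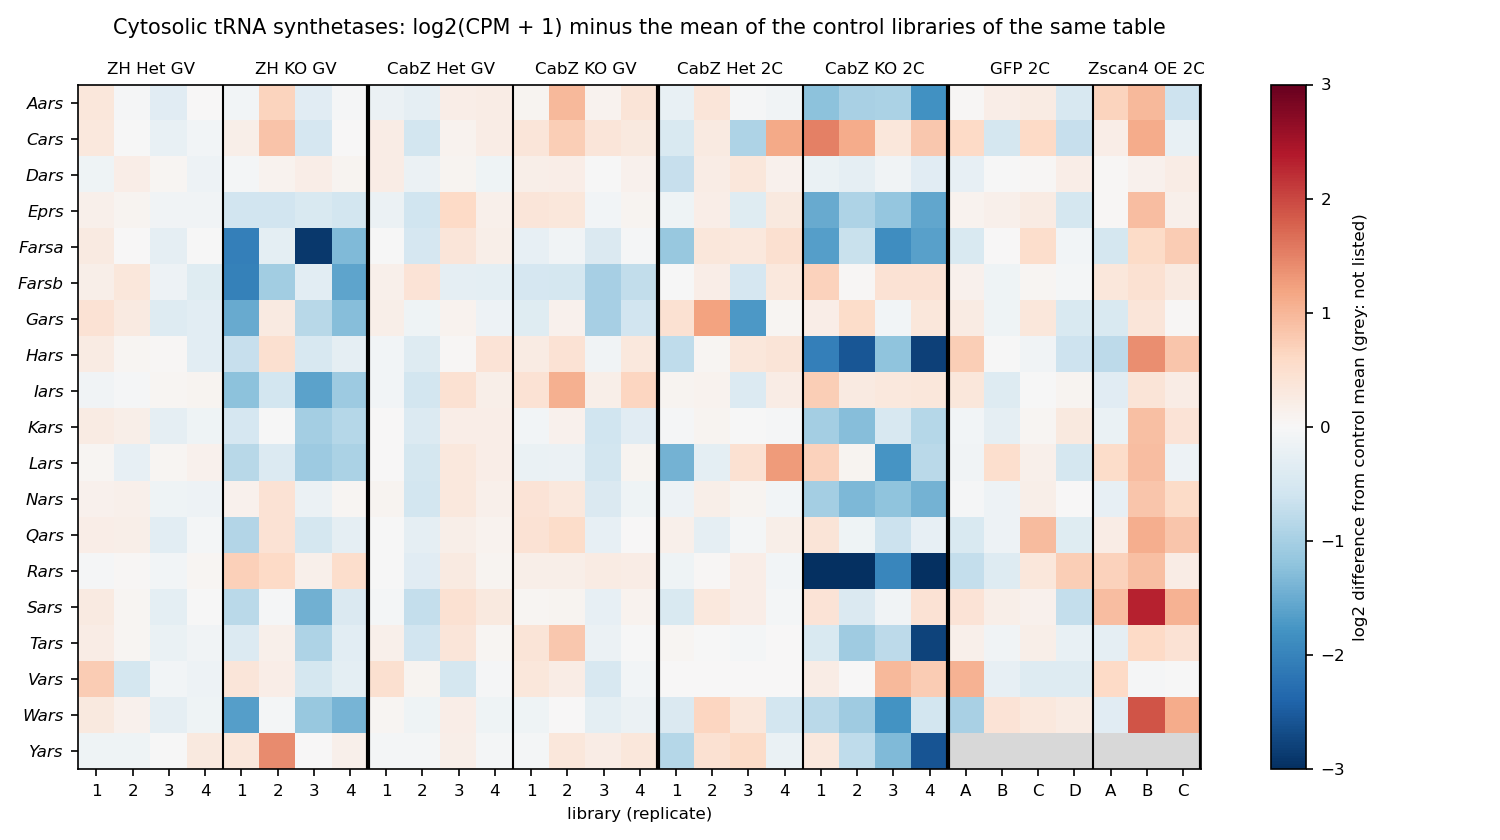
Log2(CPM + 1) of the 19 cytosolic synthetases in every library, minus the mean of the control group of the same table, on a colour scale from -3 to 3 with grey where a gene had no row. The ZH KO columns are mostly below 0, the CabZ KO 2-cell columns reach lowest at Rars and Hars, and the Zscan4 OE columns are mostly above 0.

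The libraries of a group did not move as one. ZH KO replicate 2 was the highest KO library for 17 of 27 tested members, as it was for 25.9% of all genes, and ZH Het replicates 1 and 2 both exceeded replicates 3 and 4 for 17 of 27 members, against 28.2% of all genes. The part of this in the calls was not tested beyond the values without single libraries.

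Cabin1 loss in GV oocytes left most of the list within the spread of the libraries. Of 26 members tested on FPKM, 2 rose and 1 fell, where 8.2% of the 6339 genes tested rose and 5.73% fell, shares near those of the members. Ddit3 was the DE member that rose (background 2.07%), and 0 of 26 were DE among those that fell (background 0.836%), a count that was also 0 with limma on CPM and in every other alternative. At an unadjusted p under 0.05, 3 members were higher and 1 was lower, a count without the share of all genes at that threshold, which is not given here. On CPM, 1 of 42 rose and 2 fell, against 9.31% and 5.55% of all genes. The members' median was 0.03 and that of all genes -0.02.

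Ddit3 measured 22.4, 22.1, 25.1 and 28.9 FPKM in the 4 CabZ Het libraries and 48.0, 49.3, 75.4 and 54.7 FPKM in the 4 CabZ KO libraries. All KO libraries lay above all Het libraries (log2 fold change 1.16, SE 0.16, adjusted p = 0.00134), and the call held in every alternative and without any single library. Atf4 measured 32.3, 33.0, 26.0 and 32.9 FPKM in the 4 CabZ Het libraries and 29.5, 46.7, 30.8 and 34.7 FPKM in the 4 CabZ KO libraries, and the groups overlapped (log2 fold change 0.17, SE 0.15, adjusted p = 0.543). Shmt2 measured 7.84, 8.41, 7.6 and 8.88 FPKM in the 4 CabZ Het libraries and 9.65, 11.8, 11.8 and 11.2 FPKM in the 4 CabZ KO libraries. Shmt2 rose by a smaller amount (log2 fold change 0.40, SE 0.10, adjusted p = 0.029), and the call was lost on CPM (adjusted p = 0.0688), with replicate number as a block (adjusted p = 0.0709) and without CabZ Het replicate 1 or 3 or CabZ KO replicate 2, 3 or 4 (adjusted p up to 0.0911). Farsb fell (2.64 to 4.29 FPKM in CabZ Het and 1.62 to 2.3 FPKM in CabZ KO libraries, log2 fold change -0.50, SE 0.14, adjusted p = 0.046), also on CPM (-0.69, adjusted p = 0.0367), and its call was lost without CabZ Het replicate 1 or 2 or any 1 of the KO libraries (adjusted p from 0.0555 to 0.131). Slc7a11 fell on CPM (131 to 179.9 CPM in CabZ Het and 78.4 to 114 CPM in CabZ KO libraries, log2 fold change -0.58, SE 0.18, adjusted p = 0.0499).

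Fgf21 had 0 reads in each of the 4 CabZ Het libraries and 9, 14, 4 and 1 reads in the KO libraries, at most 0.951 FPKM. Taken as 28 reads against the 3 that a count of 0 allows over the group, it was at least 11.2-fold higher in KO, a bound that covers counting error only. Nupr1 held 0 to 3 reads in Het and 0 to 1 in KO libraries, and Xbp1 at most 5. Dnajb9 measured 3.62, 3.48, 3.14 and 3.00 FPKM in the 4 CabZ Het libraries and 3.62, 3.79, 3.85 and 2.48 FPKM in the 4 CabZ KO libraries. KO replicate 4 stood below the other KO libraries, and Dnajb9 did not pass the test (log2 fold change 0.03, adjusted p = 0.897). Ppp1r15a measured 15.3, 11.7, 19.9 and 17.1 FPKM in the 4 CabZ Het libraries and 20.1, 16.6, 8.15 and 10.5 FPKM in the 4 CabZ KO libraries (log2 fold change -0.25, adjusted p = 0.6). The remaining ER genes stayed close to their controls, and the ER group's median was 0.03. Sdf2l1 spanned 7.53 to 10.1 FPKM in CabZ Het and 6.79 to 9.03 FPKM in CabZ KO libraries, and Pdia4 3.10 to 4.67 FPKM in CabZ Het and 1.82 to 3.79 FPKM in CabZ KO libraries. Neither passed the test.

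The kinases did not pass the test on either scale. Eif2ak1 was at 1.20 to 1.42 against 1.25 to 1.94 FPKM, Het first, and Eif2ak3 and Eif2ak4 at 0.0727 to 0.0991 against 0.0584 to 0.128 FPKM and 0.242 to 0.331 against 0.252 to 0.347 FPKM. Eif2ak2 had 6 to 16 reads in Het and 0 to 4 in KO libraries (exact two-sided permutation p 0.0286, the smallest possible). Of 12 synthetases tested, Farsb fell and the other 11 did not pass, with a median of 0.05. Farsa measured 1.83 to 3.39 FPKM in CabZ Het and 1.91 to 2.58 FPKM in CabZ KO libraries and Rars 5.39 to 8.31 FPKM in CabZ Het and 7.74 to 8.19 FPKM in CabZ KO libraries. Under the minimum, Cars was at 0.376 to 0.653 against 0.691 to 0.946 FPKM with no overlap (exact two-sided permutation p 0.0286, again the smallest possible, not adjusted for the members compared), Aars at 0.471 to 0.685 against 0.616 to 1.18 FPKM, Gars at 0.615 to 0.765 against 0.332 to 0.751 FPKM, Hars at 0.259 to 0.493 against 0.325 to 0.497 FPKM and Lars at 0.179 to 0.333 against 0.176 to 0.281 FPKM, Het first, and none of these passed on CPM. Atf3 (0.0471 to 0.0906 against 0.0459 to 0.0891 FPKM), Chac1 (0.296 to 0.943 against 0 to 0.317 FPKM), Ddit4 (0.624 to 1.93 against 0.626 to 1.43 FPKM), Gdf15 (0.471 to 0.916 against 0.238 to 0.587 FPKM), Asns (0.0747 to 0.130 against 0.0425 to 0.105 FPKM), Phgdh (0.579 to 0.839 against 0.762 to 1.45 FPKM), Slc7a5 (0.141 to 0.214 against 0.0868 to 0.287 FPKM) and Vars (0.0235 to 0.115 against 0.0272 to 0.0977 FPKM) were also under it, each with no call on CPM where it was tested. The summed markers of granulosa cells were higher in CabZ KO oocytes (sums of 242 to 319 against 197 to 232 CPM). Of the 7 listed, 2 were higher without overlap, Fshr (27.9 to 49.9 against 0.562 to 1.23 CPM) and Cyp19a1 (50.9 to 69.3 against 36.7 to 49.75 CPM). None was lower without overlap, and the others overlapped, among them Esr2 (163 to 199.5 against 152 to 179 CPM). The part of these markers in the values of the list was not tested.

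In 2-cell embryos from Cabin1 oocytes, Shmt2, Ddit3, Nupr1 and Hsp90b1 rose, and Rars, Nars, Kars, Dnajb9, Sdf2l1, Ppp1r15a, Psat1 and Trib3 fell. Of 24 members tested on FPKM, 4 rose and 8 fell, where 25.2% of the 7798 genes tested rose and 30.9% fell, so the members' calls were fewer than, or close to, what the table as a whole gave. The DE members were Shmt2, Ddit3 and Nupr1 among those that rose (3 of 24, background 16.9%) and Rars, Dnajb9, Ppp1r15a and Sdf2l1 among those that fell (4 of 24, background 20.4%), again not above the shares of all genes. The members' median was -0.16 beside -0.11 for all genes. The balance of calls depended on scaling. The share of calls that were higher was 33.3% in the values used, 50% with libraries scaled to their median gene, which put the median of all genes at 0.07, and 80% in the values as deposited (4 higher, 1 lower), which put it at 0.39. On CPM 51 members were tested, 7 rose and 16 fell, against 25.5% and 19.2% of all genes.

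Ddit3 measured 10.7, 4.65, 4.68 and 13.7 FPKM in the 4 CabZ Het libraries and 26.9, 30.0, 29.5 and 22.8 FPKM in the 4 CabZ KO libraries. The KO libraries were all above the Het libraries, which themselves spanned a wide range (log2 fold change 1.71, SE 0.33, adjusted p = 0.00202). Nupr1 measured 4.41, 6.54, 11.5 and 12.2 FPKM in the 4 CabZ Het libraries and 31.8, 22.7, 12.6 and 11.4 FPKM in the 4 CabZ KO libraries. Nupr1 rose although the groups overlapped (log2 fold change 1.07, SE 0.39, adjusted p = 0.0403), with the call lost on CPM (adjusted p = 0.0529), with the replicate block (adjusted p = 0.0981) and without CabZ Het replicate 1 or 2 or CabZ KO replicate 1 or 2 (0.0936 to 0.0997). Cebpb, a partner of ATF4, was higher in each KO than in each Het library without passing the test (1.000 to 6.62 FPKM in CabZ Het and 7.31 to 9.66 FPKM in CabZ KO libraries, adjusted p = 0.0515). Atf4 measured 25.6, 49.0, 21.3 and 46.4 FPKM in the 4 CabZ Het libraries and 23.4, 21.4, 28.6 and 27.9 FPKM in the 4 CabZ KO libraries, and the groups overlapped (log2 fold change -0.40, SE 0.29, adjusted p = 0.262). Shmt2 measured 9.66, 5.72, 3.06 and 10.9 FPKM in the 4 CabZ Het libraries and 19.0, 31.3, 23.5 and 30.7 FPKM in the 4 CabZ KO libraries. Shmt2 had the largest rise among the tested members, with every KO library above every Het library (log2 fold change 1.79, SE 0.34, adjusted p = 0.0021). Its span shares 32 bp with Ndufa4l2 on the opposite strand. Psat1, the serine pathway aminotransferase, fell (2.83 to 4.67 FPKM in CabZ Het and 0.915 to 2.29 FPKM in CabZ KO libraries, log2 fold change -0.81, SE 0.22, adjusted p = 0.0105), and Phgdh was lower on CPM (log2 fold change -1.49, SE 0.38, adjusted p = 0.0093).

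Pck2 rose on CPM (0.626 to 4.15 CPM in CabZ Het and 3.95 to 9.07 CPM in CabZ KO libraries, log2 fold change 1.25, SE 0.42, adjusted p = 0.0344), and so did Slc7a11 (3.23 to 22.6 CPM in CabZ Het and 11.5 to 38.1 CPM in CabZ KO libraries, log2 fold change 1.54, SE 0.55, adjusted p = 0.0436). Slc7a11 was thus lower than its Het control in both GV oocyte tables and higher in the 2-cell embryos, and these differences between tables were not tested. Fgf21 was detected in both groups, 0 to 1.65 FPKM in CabZ Het and 0.107 to 4.80 FPKM in CabZ KO libraries, and did not pass the test (log2 fold change 0.57, SE 0.48, adjusted p = 0.34). Vldlr was at 0.0161 to 0.293 against 0.118 to 0.975 FPKM and Xbp1 at 0.0240 to 0.881 against 0.0981 to 0.793 FPKM, Het first, with no call on CPM.

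Ppp1r15a measured 19.8, 24.2, 15.7 and 18.1 FPKM in the 4 CabZ Het libraries and 8.06, 8.0, 9.09 and 4.61 FPKM in the 4 CabZ KO libraries. Ppp1r15a fell with no overlap of the groups (log2 fold change -1.29, SE 0.23, adjusted p = 0.00149), and the values as deposited gave an adjusted p of 0.0548. Trib3, an inhibitor of signalling that is a late target of CHOP, fell (0.571 to 3.44 FPKM in CabZ Het and 0.191 to 0.854 FPKM in CabZ KO libraries, log2 fold change -0.82, SE 0.31, adjusted p = 0.0476), and the call was lost with the block (adjusted p = 0.0687) and without CabZ Het replicate 3 or 4 or CabZ KO replicate 2, 3 or 4 (adjusted p up to 0.110). Sesn2 fell on CPM (10.3 to 28.1 CPM in CabZ Het and 3.48 to 9.45 CPM in CabZ KO libraries, log2 fold change -1.65, SE 0.38, adjusted p = 0.00613). Dnajb9 measured 215, 247, 309 and 198 FPKM in the 4 CabZ Het libraries and 122, 94.2, 93.4 and 51.9 FPKM in the 4 CabZ KO libraries. Dnajb9 was far higher in these embryos than in the oocytes and lower in KO than in Het embryos (log2 fold change -1.46, SE 0.27, adjusted p = 0.00189), the reverse of its direction in ZH oocytes. The difference between the tables was not tested. Sdf2l1 measured 10.9, 26.8, 20.6 and 14.5 FPKM in the 4 CabZ Het libraries and 10.7, 4.26, 7.81 and 6.81 FPKM in the 4 CabZ KO libraries. Sdf2l1 fell, with the lowest Het library next to the highest KO library (log2 fold change -1.18, SE 0.32, adjusted p = 0.0118), and the values as deposited gave an adjusted p of 0.203. Hsp90b1 rose (7.45 to 10.7 FPKM in CabZ Het and 14.1 to 15.1 FPKM in CabZ KO libraries, log2 fold change 0.63, SE 0.17, adjusted p = 0.0105), not quite past the threshold on CPM (adjusted p = 0.0508). Herpud1 rose on CPM (0 to 6.31 CPM in CabZ Het and 3.08 to 12.4 CPM in CabZ KO libraries, log2 fold change 2.01, SE 0.63, adjusted p = 0.0251). Hspa5 (38.4 to 50.8 FPKM in CabZ Het and 34.6 to 51.4 FPKM in CabZ KO libraries) and Pdia4 (1.18 to 2.37 FPKM in CabZ Het and 1.19 to 1.46 FPKM in CabZ KO libraries) did not pass the test.

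All 4 kinases were under the FPKM minimum in these embryos. On CPM Eif2ak1 rose (19.6 to 31.1 CPM in CabZ Het and 36.0 to 71.6 CPM in CabZ KO libraries, log2 fold change 0.95, SE 0.32, adjusted p = 0.0312), with its opposite-strand neighbour Aimp2 lower (log2 fold change -2.76 on FPKM). Eif2ak4 also rose on CPM (4.14 to 15.9 CPM in CabZ Het and 13.9 to 19.2 CPM in CabZ KO libraries, log2 fold change 1.04, SE 0.39, adjusted p = 0.0482). Eif2ak3 (19.5 to 32.8 CPM in CabZ Het and 18.6 to 26.9 CPM in CabZ KO libraries) and Eif2ak2 (0.378 to 4.03 CPM in CabZ Het and 0 to 4.18 CPM in CabZ KO libraries) did not pass the test. Eif2ak1 and Eif2ak4, lower in ZH KO oocytes, were thus higher in CabZ KO 2-cell embryos, each against its own control.

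**Figure D4:**
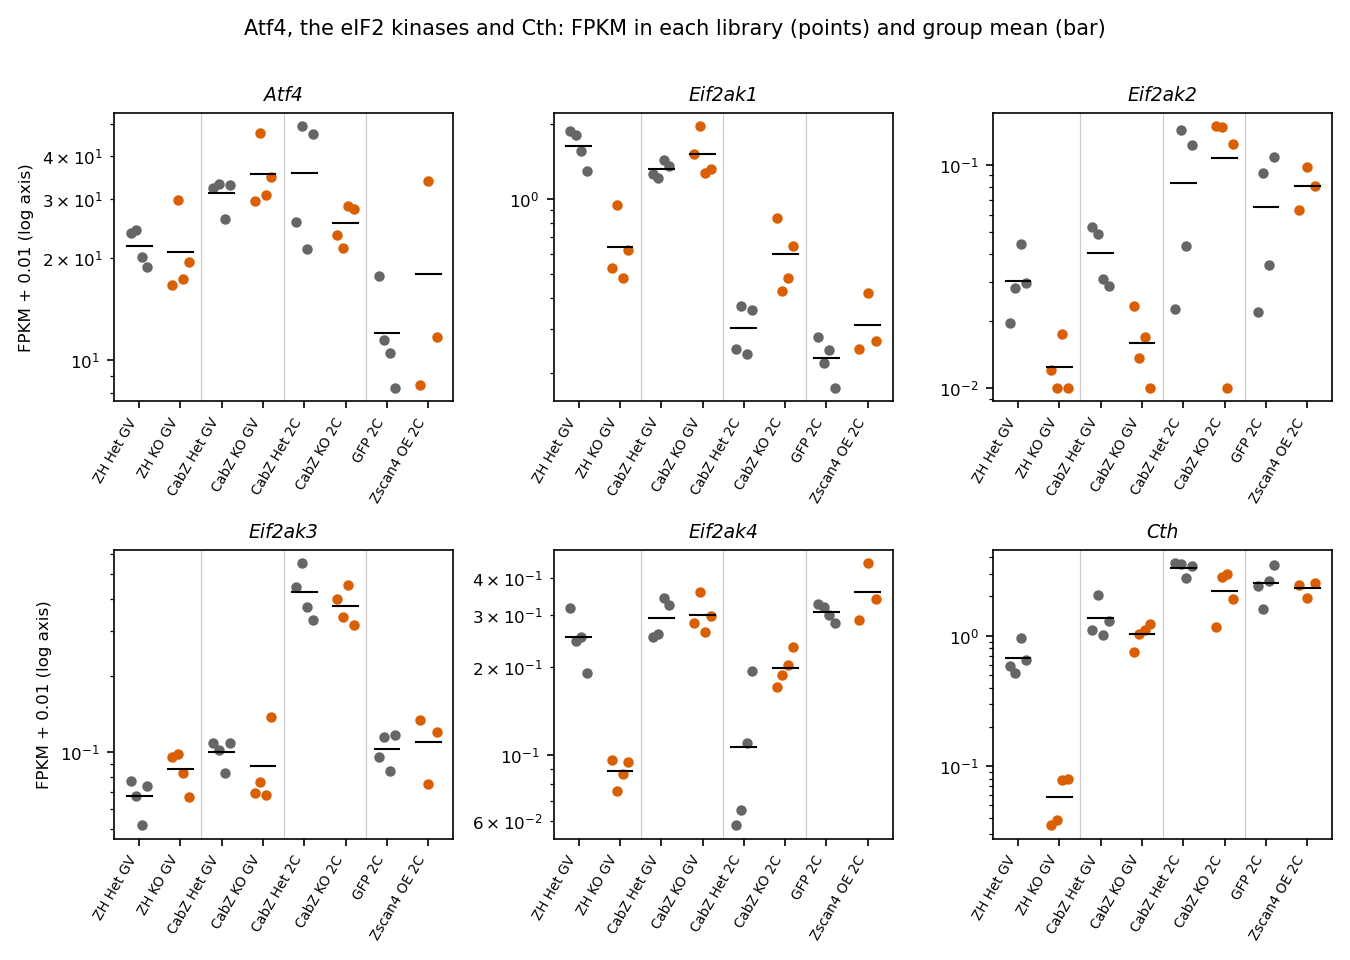
FPKM + 0.01 in every library (log axis) of Atf4, the 4 eIF2 kinases and Cth, with control groups in grey, KO and Zscan4 OE groups in orange and a bar at each group mean. Atf4 overlaps between the groups in every comparison, and Eif2ak1, Eif2ak4 and Cth separate in the ZH panel.

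Of 7 synthetases tested on FPKM in 2-cell embryos, 0 rose and 3 fell, beside 25.2% and 30.9% of all genes, with a median of -0.14 that median scaling moved close to 0. On CPM 18 were tested, 0 rose and 9 fell, beside 25.5% and 19.2% of all genes, with a median of -0.98 against 0.18 for all genes. Rars measured 4.34, 4.87, 5.44 and 4.46 FPKM in the 4 CabZ Het libraries and 0.419, 0.501, 1.19 and 0.335 FPKM in the 4 CabZ KO libraries. Rars showed the clearest fall of the list, every KO library below every Het library (log2 fold change -1.87, SE 0.20, adjusted p = 0.000217). Nars, for asparagine (4.60 to 5.83 FPKM in CabZ Het and 1.88 to 2.49 FPKM in CabZ KO libraries, log2 fold change -0.97, SE 0.16, adjusted p = 0.000985), and Kars (3.10 to 3.33 FPKM in CabZ Het and 1.28 to 2.24 FPKM in CabZ KO libraries, log2 fold change -0.64, SE 0.17, adjusted p = 0.00933) fell as well. On CPM the others that fell were Hars for histidine (-2.15, adjusted p = 0.00246), Farsa (-1.45, adjusted p = 0.0185), Eprs (-1.29, adjusted p = 0.00541), Tars for threonine (-1.28, adjusted p = 0.0417), Aars for alanine (-1.24, adjusted p = 0.00769) and Wars (-1.06, adjusted p = 0.0439). Hars, with the deepest of these changes, spanned 13.6 to 31.3 CPM in CabZ Het and 2.58 to 9.79 CPM in CabZ KO libraries. Aars and Tars carry the core and fell, while Gars, which also carries it, did not pass (1.63 to 19.2 CPM in CabZ Het and 7.27 to 11.8 CPM in CabZ KO libraries). Vars had 0 reads in Het and 0 to 6 in KO libraries. With reads pooled over each group this was at least 4.86-fold more in KO, a bound that covers counting error only and not the spread between libraries. Yars (0.388 to 1.10 against 0.0921 to 0.906 FPKM), Sars (0.624 to 1.11 against 0.643 to 1.20 FPKM), Cars (0.0321 to 0.207 against 0.111 to 0.276 FPKM) and Lars (0.0147 to 0.187 against 0.00792 to 0.120 FPKM) were under the minimum and did not pass on CPM. The summed 2-cell transcripts overlapped but reached higher in the KO libraries (1703 to 5772 against 1475 to 3359 CPM). Of the 7, 1 was higher without overlap, Gm5039 (290 to 907 against 43.9 to 139 CPM), and the others overlapped. The summed markers of granulosa cells were higher in the KO libraries (132 to 151 against 51.9 to 116 CPM). Of the 10 granulosa markers listed, 3 were higher in KO without overlap (Fshr, Cyp19a1 and Esr2). Esr2 held much of the sum (81.1 to 88.5 against 15.8 to 37.85 CPM). Amhr2 was lower without overlap (0.172 to 7.11 against 13.5 to 20.1 CPM), and the others overlapped. Of 12 oocyte markers 8 were higher in KO without overlap, among them Npm2 (497 to 597 against 95.9 to 181 CPM), Gdf9 (170 to 534 against 67.7 to 97.1 CPM), Bmp15 (507 to 1021 against 187 to 311 CPM) and H1foo (156 to 485 against 35.2 to 92.9 CPM), while their sums overlapped (7676 to 15470 against 7858 to 9418 CPM). The part of these markers in the changes of the list was not tested.

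The remaining members of low level in these embryos were Atf3 (0 to 0.323 against 0.104 to 0.161 FPKM), Asns (0.0209 to 0.284 against 0 to 0.203 FPKM) and Slc7a5 (0.118 to 0.436 against 0.143 to 0.234 FPKM), none of them with a call on either scale. Chac1, Ddit4, Gdf15 and Aldh1l2, a mitochondrial folate enzyme, had a library with 0 or 1 read in at least 1 group.

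In embryos labelled Zscan4 OE no member of the list passed the test with limma, on FPKM (0 of 18) or on CPM (0 of 42). Of all genes, 0.0932% rose and 1.7% fell on FPKM (0.0233% and 1.42% DE) and 0.0398% and 0.453% on CPM. At an unadjusted p under 0.05 there were 5 members on each scale, and on FPKM these were Mthfd2 and Sars (higher) and Ddit3, Dnajb9 and Hsp90b1 (lower). The share of all genes at the unadjusted threshold is not given here, so the 5 cannot be set against it. With a minimum mean of 5 FPKM, 1 member was called, Dnajb9 (adjusted p = 0.0444), which was also called without Zscan4 OE replicate C (adjusted p = 0.0362). Dnajb9 measured 23.5, 27.4, 22.0 and 21.5 FPKM in the 4 GFP libraries and 11.2, 5.10 and 13.1 FPKM in the 3 Zscan4 OE libraries. The groups did not overlap (log2 fold change -1.27, SE 0.28, adjusted p = 0.0622). Ddit3 measured 11.3, 8.01, 7.13 and 6.05 FPKM in the 4 GFP libraries and 5.87, 4.01 and 4.50 FPKM in the 3 Zscan4 OE libraries. The OE libraries lay below the GFP libraries, with log2 fold change -0.64, SE 0.22 and adjusted p = 0.156. Atf4 measured 17.8, 11.5, 10.5 and 8.25 FPKM in the 4 GFP libraries and 8.42, 33.8 and 11.7 FPKM in the 3 Zscan4 OE libraries, with OE replicate B above the rest (log2 fold change 0.36, SE 0.43, adjusted p = 0.658). Nupr1 measured 1.83, 1.52, 0.974 and 1.83 FPKM in the 4 GFP libraries and 1.93, 0.470 and 1.13 FPKM in the 3 Zscan4 OE libraries (adjusted p = 0.559).

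Ppp1r15a measured 2.16, 3.06, 4.38 and 2.63 FPKM in the 4 GFP libraries and 3.82, 4.02 and 6.00 FPKM in the 3 Zscan4 OE libraries, and Sdf2l1 measured 0.854, 1.77, 1.56 and 1.08 FPKM in the 4 GFP libraries and 1.29, 2.26 and 1.53 FPKM in the 3 Zscan4 OE libraries. The groups overlapped for both. The kinases Eif2ak1, Eif2ak2, Eif2ak3 and Eif2ak4 were at 0.163 to 0.268 against 0.240 to 0.408 FPKM, 0.0120 to 0.0986 against 0.0533 to 0.0886 FPKM, 0.0747 to 0.107 against 0.0652 to 0.124 FPKM and 0.271 to 0.317 against 0.279 to 0.438 FPKM, GFP first, and did not pass on CPM. Of 17 synthetases tested on CPM, 16 estimates were above 0, with a median of 0.37 against 0.08 for all genes, and none passed. Rars spanned 0.181 to 0.554 against 0.381 to 0.631 FPKM and Farsa 0.193 to 0.448 against 0.183 to 0.537 FPKM, GFP first. Shmt2 spanned 11.1 to 19.2 FPKM in GFP and 14.8 to 17.4 FPKM in Zscan4 OE libraries. The largest synthetase estimate on FPKM was that of Sars (0.384 to 0.849 FPKM in GFP and 1.25 to 3.38 FPKM in Zscan4 OE libraries, log2 fold change 0.79, SE 0.25, adjusted p = 0.138). Members under the FPKM minimum that had over 3 reads in every library of a group were Atf3, Chac1, Ddit4, Vldlr, Asns, Psat1, Phgdh, Slc7a11, Slc7a5, Xbp1, Pdia4, the kinases, Rars, Farsa, Aars, Cars, Dars, Eprs, Gars, Hars, Iars, Lars, Tars and Wars, with group means from 0.0133 FPKM (Slc7a5 in GFP) to 0.719 FPKM (Iars in Zscan4 OE). The sum of the 2-cell transcripts was lower in these libraries (1284 to 3186 CPM) than in GFP (3327 to 5135 CPM). Of the 7, 2 were lower without overlap, Zscan4f (154 to 865 against 1066 to 1715 CPM) and Gm5039 (45.7 to 274 against 346.5 to 443 CPM). None was higher without overlap, and the others overlapped. Much of the sum came from 3 Zscan4 genes (802 to 2233 against 2314 to 4002 CPM). The part of this sum in the lower Dnajb9 values was not tested.

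Levels of different synthetases were compared per length, as depth-scaled reads per kilobase of exons, since introns weigh on the deposited scale. Exon length was the union over all annotated transcripts of a gene, which can exceed its expressed messenger, so the order depends on it. In ZH Het oocytes Qars was at 200 to 287 CPM and Farsb at 199 to 325 CPM. Qars was divided by 6572 exon bases and Farsb by 2620. Farsb was the highest on this scale in ZH Het oocytes (99.9 ± 21.8, mean ± SD, n = 4), followed by Rars (55.2 ± 2.38) and Iars (51.2 ± 3.11), with the ranges of the latter pair overlapping (52.4 to 57.5 and 47.5 to 54.4). At the other end, Vars (0.181 ± 0.148) and Yars (0.0173 ± 0.0264) were nearly undetected in oocytes. CabZ Het oocytes gave the same first 3 and last pair, with Farsb at 89.8 ± 21.3 and Rars at 56.3 ± 9.84. Farsb exceeded its partner subunit Farsa (10.0 ± 1.55 in ZH Het) although both subunits make 1 enzyme. Farsa was divided by 4538 exon bases, and before that division it was at 37.2 to 54.4 CPM in ZH Het. In CabZ Het 2-cell embryos Rars (38.7 ± 4.02) and Farsb (35.4 ± 8.30) led with overlapping ranges, and Yars was at 3.93 ± 1.67. In GFP embryos Farsb (76.4 ± 6.76) stood far above all others, the next being Kars (10.0 ± 1.73). Among the kinases, Eif2ak1 led in ZH Het oocytes (33.1 ± 5.35), then Eif2ak4 (3.76 ± 0.808), Eif2ak3 (0.781 ± 0.156) and Eif2ak2 (0.161 ± 0.0801), with no overlap between neighbours. In CabZ Het 2-cell embryos Eif2ak1 (4.47 ± 1.07) and Eif2ak3 (4.18 ± 0.967) could not be ordered, since their ranges overlapped.

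The members with the core in their promoter did not move as a block. On CPM, 9 of the 11 were tested in ZH oocytes, where Fgf21, Nupr1 and Atf3 rose and Slc7a11 fell, beside 32.6% and 20% of all genes. Of 7 tested in CabZ oocytes, 0 rose and Slc7a11 fell, beside 9.31% and 5.55% of all genes. All 11 were tested in CabZ 2-cell embryos, where Pck2, Slc7a11 and Herpud1 rose and Aars and Tars fell, beside 25.5% and 19.2% of all genes. In ZH oocytes and CabZ 2-cell embryos these counts lay near or below the shares of all genes. Of 7 tested in the libraries labelled Zscan4 OE, 0 passed. The pair with the ER element differed too. Hsp90b1 rose in ZH oocytes and in CabZ 2-cell embryos on FPKM, and Hspa5 passed in no comparison.

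A further 77 genes of the same pathways, in 5 lists, were counted alongside. In ZH oocytes 26 were tested on FPKM, 1 rose and 14 fell, beside 25.6% and 26.3% of all genes. Of 12 other genes of the unfolded protein response 10 fell, with the co-chaperone regulator Creld2 (-1.99, adjusted p = 7.15e-05), the ER degradation factor Derl3 (-1.53, adjusted p = 0.000325) and the inhibitor of PERK Dnajc3 (-1.02, adjusted p = 9.89e-05) being DE. Of the multisynthetase complex, Eef1e1 (-1.73, adjusted p = 0.000114) was DE and fell, and Aimp2 (1.05, adjusted p = 0.00024) was DE and rose. The eIF2B subunits Eif2b2 and Eif2b4, exchange factors for eIF2, fell by 0.95 and 0.99 on the log2 scale (adjusted p = 0.00394 and 0.0092). In CabZ oocytes 31 were tested, where 8.2% of all genes rose and 5.73% fell. Of these 0 rose and 2 fell, Map1lc3b by 0.51 and Eef1e1 by 0.41 on the log2 scale (adjusted p = 0.00554 and 0.0169). In CabZ 2-cell embryos 33 were tested, 3 rose and 17 fell, beside 25.2% and 30.9% of all genes, and of the 12 tested genes of eIF2, eIF2B and its phosphatase 9 fell and Ppp1cb, a catalytic subunit of that phosphatase, rose by 0.62. The largest changes there were those of the complex scaffold Aimp2 (-2.76, adjusted p = 0.000121), the autophagy gene Map1lc3b (-2.48, adjusted p = 0.000251), the alpha subunit of eIF2 itself, Eif2s1 (-1.74, adjusted p = 0.00108), Eif2b4 (-1.44, adjusted p = 0.00214), the phosphatase subunit Ppp1ca (-1.30, adjusted p = 0.00163), Gadd45a (-1.18, adjusted p = 0.00598), Eif2a (-1.17, adjusted p = 0.00174) and the disulphide isomerase Pdia3 (-1.08, adjusted p = 0.00201). Eif2s1 spanned 23.5 to 35.4 FPKM in CabZ Het and 4.62 to 13.4 FPKM in CabZ KO libraries without overlap. In the libraries labelled Zscan4 OE, 0 of 17 tested passed (limma on FPKM).

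Across the 8 ZH libraries the genes most like Ddit3 by Pearson r of log2(FPKM + 1) were Acsl3 (0.9985), Ebp (0.997) and Gon7 (0.9959), those most like Nupr1 were Cd209g (0.988), Rpl15-ps3 (0.9794) and Cts3 (0.971), and those most like Dnajb9 were Zscan4d (0.9944), 4930553I21Rik (0.9913) and AL589737.1 (0.9905). These libraries fall into the KO and the Het cluster, so the values mainly describe the difference between them.

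ATAC-seq peaks, called by the authors in each of 3 CabZ Het and 3 CabZ KO libraries of GV oocytes, were read at the starts of the 55 members (within 500 bp). The Het libraries A, B and C had a peak at 8, 19 and 31 members (14.5%, 34.5% and 56.4%), where 10.6%, 21.7% and 39.5% of 16933 protein-coding genes had one. The KO libraries A, B and C had one at 10, 2 and 5 members (18.2%, 3.64% and 9.09%), where 15.6%, 4.74% and 6.21% of genes did. The libraries held 43399, 67074 and 111327 peaks in Het and 46070, 19160 and 29600 in KO, and the members' counts ranked in the same order as these totals. No member had a peak in all 6 libraries, and 19 had one in none.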

How the data were processed

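RNA-seq of oocytes and 2-cell embryos and ATAC-seq of oocytes were analysed from the files deposited by the authors, whose processing notes name FastQC, STAR 2.5.3a, Partek, Bowtie2 2.3, MACS2, bedtools and HOMER, with mm10. The authors' FPKM values of the Hira and Zscan4 tables run over the whole gene span, introns included, with a constant of 0.01 or 0.001 added. The deposited Cabin1 tables hold a score, reads divided 2 times by the span and scaled to equal library totals. FPKM was restored from that score, scaled to each library's reads on genes. Design choices had assumed FPKM there. The deposited peak lists give a score, fold enrichment (ratio) and −log10 p and q, and were called per library.

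Reads were recovered from the steps between low values. Of values below 8 reads, 82.4% to 89.5% were whole within 0.1 read, so no count test was run. Limma 3.58.1 (R 4.3.3) was fitted to log2(FPKM + 1) for genes whose mean reached 1 FPKM, each table alone and with no covariate, with Benjamini-Hochberg adjustment over all of them. The second scale was CPM (mean of at least 1). Single members under the minimum were compared by a two-sided exact permutation test. Alternatives were a pseudocount of 0.1, no minimum or one of 5 FPKM, median scaling, scaling to the reads of the table, values as deposited (Cabin1 tables), a trended variance, replicate number as a block and each library left out. Summaries and figures were made in Python 3.11.15 with matplotlib 3.10.9, scipy 1.17.1, pandas 2.3.3 and numpy 2.4.6, and the fit was tested on simulated data. Intervals cover counting error only.

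Members and gene lists were chosen with earlier results of these data known. Named in each comparison are the members with an adjusted p under 0.05, with values per library where they were DE in at least 1 comparison, and always Atf4 and the eIF2 kinases. Members under the minimum are named where they had over 3 reads in every library of a group, other pathway genes where DE, at most 8 per comparison, and for Ddit3, Nupr1 and Dnajb9 the 3 genes most like them. Cebpb, Hspa5 and other members without a call are named to complete their group. Groups and replicate numbers follow the labels.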

Additional observations from a re-analysis of the deposited data

Results flagged for a closer look

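Among 60 groups of 4 libraries examined for a library far from the others, 2 were marked, and chance marks about 1 in 20 groups. Nupr1 was at 0.6897 FPKM in ZH Het replicate 1, while the other ZH Het libraries held 0 to 0.0517 FPKM. Dnajb9 was at 2.485 FPKM in CabZ KO GV replicate 4, below the 3.624 to 3.851 FPKM of the other CabZ KO oocyte libraries.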

How the results depend on the processing

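No result changed direction past its threshold under an alternative. In ZH oocytes the 4 DE members that were higher became 2 with a mean of at least 5 FPKM. The 4 that were lower became 8 with a pseudocount of 0.1, 2 with no filter on low values, 1 with a mean of at least 5 FPKM, 11 on CPM, 2 scaled to the reads of the table, and 11 as reads scaled to all mapped reads, an alternative chosen after seeing the data. Leaving out 1 library gave 4 to 5 higher and 1 to 6 lower, with 1 lower without ZH Het replicate 1 and 2 lower without ZH Het replicate 2 or ZH KO replicate 1. Members with an adjusted p under 0.05 numbered 5 higher and 13 lower, 3 and 3 at a mean of at least 5 FPKM, and 9 and 15 on CPM. In CabZ oocytes 1 DE member was higher and 0 were lower in every alternative and without any single library. Members with an adjusted p under 0.05 there, 2 higher and 1 lower, ranged from 1 to 2 and from 0 to 2. In CabZ 2-cell embryos the 3 DE members that were higher became 6 on CPM (2 to 4 without 1 library). The 4 that were lower became 7 with a pseudocount of 0.1, 15 on CPM and 0 in the values as deposited (3 to 6 without 1 library). Members with an adjusted p under 0.05 there, 4 higher and 8 lower, became 7 and 16 on CPM, 7 and 7 with median scaling, 4 and 14 with no filter, 5 and 3 at a minimum of 5 FPKM and 4 and 1 in the values as deposited. In the libraries labelled Zscan4 OE the 0 that were lower became 1 with a mean of at least 5 FPKM (0 to 1 without 1 library, the 1 being Dnajb9 without Zscan4 OE replicate C). A different filter or CPM changes which genes are tested, with 27 members in ZH oocytes in the values used, 46 on CPM and 55 with no filter. The share of all genes that were DE under each alternative is not given here. The counts therefore describe how the calls depend on processing and do not compare the members with other genes. The cause of the other changes was not tested.

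Replicate numbers were shared between groups, but same-numbered libraries did not all deviate together, nor did every library correlate best with its own number. The r of same-numbered libraries ran from -0.407 to 0.395 in ZH, from -0.18 to 0.144 in CabZ oocytes, from -0.052 to 0.125 in CabZ 2-cell embryos and from -0.162 to 0.148 in Zscan4. So few pairs in a table cannot decide whether such libraries share more than a number, which was not tested. With replicate number as a block, the members called remained 5 higher and 13 lower in ZH, became 1 and 1 from 2 and 1 in CabZ oocytes, and 3 and 7 from 4 and 8 in CabZ 2-cell embryos, and stayed at 0 in Zscan4.

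For ATAC-seq peaks, a window of 2000 bp moved the number of members with a peak from 8 to 15, 19 to 28 and 31 to 41 in Het libraries A, B and C and from 10 to 18, 2 to 3 and 5 to 9 in KO libraries A, B and C. With a −log10 q of at least 5 they were 0, 4 and 18 in Het and 2, 1 and 0 in KO. Depth limits the low members, since a count of 0 reads allows up to 3.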
